A study of Mus musculus with 72 samples.

Results

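The 8 libraries described here are the wild types of the E5 line, 4 from mice deprived of food for 72 h and 4 from fed mice, out of 72 libraries in all. They were chosen by line, genotype and feeding state, as the columns of the 2 deposited E5 count tables name them. RNA was purified from the hypothalamus of adult B6 mice of 5 lines, E1 to E5, in each of which a conserved noncoding element was knocked out, and wild types of each line were sampled beside the knockouts. The study asked whether elements tied to hibernation alter gene expression, and its tables are named for the gene Fto. Fasted mice had water. Other mice serve for comparison: fasted and fed knockouts of the E5 line (4 each), fed wild types of the E2 line (4), fasted and fed wild types of the E1 line (3 and 4), and fasted and fed wild types of the E3 line (3 each). Library totals were 23525433 to 30330400 counts in fasted and 19033150 to 26778643 counts in fed E5 wild types.

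A limit applies to every E5 difference given here. The labels place the fasted E5 libraries in batch 20013 and the fed E5 libraries in batch 19713, so feeding state and batch coincide in this line and cannot be told apart within it. Fed E2 wild types were in batch 20013 with the fasted E5 libraries. In E1 (batch 22687) and in E3 (batch 18854) the fasted and fed libraries shared a batch. Values are therefore drawn from 4 contrasts of wild types. These are fasted over fed E5, fasted over fed in E1 and E3 together, fasted E5 over fed E2 within batch 20013, and fed E2 over fed E5, which holds no fasting but a change of both batch and line. Some genes and lists are given in fewer of these contrasts, and a value given for E5 alone holds the batch as well. The contrasts with E2 share libraries with that of E5, so their values only stand side by side.

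The hypothalamus reads hormonal signs of the body's energy stores and sets food intake, energy use and endocrine output. In its arcuate nucleus, neurons that make the appetite-stimulating peptides Npy and Agrp are known to become active when leptin and insulin fall, while neurons that make the appetite-reducing products of Pomc become less active. Food deprivation is also known to raise circulating corticosterone, which acts through the glucocorticoid receptor on target genes in many brain cells, and to turn tissues towards fat and ketone bodies as fuel.

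Markers of the hypothalamus were present in all 8 libraries. Of 20 transcription factors that mark hypothalamic regions, 18 were measured, and their summed level was 224 to 245.8 scaled CPM in fasted and 197.4 to 245.9 scaled CPM in fed libraries. Scaled CPM are each gene's share of the library total as CPM, adjusted by trimmed-mean (TMM) factors shared by the E5 and fed E2 libraries. Of 10 neuronal markers, 8 were measured and Tubb3 and Nefl are listed at 0. B2m, which nearly all cells express, is also listed at 0 in every E5 library, so a gene listed at 0 is not read here as one that is not expressed. The 8 neuronal markers summed to 2757 to 2949 scaled CPM in fasted and 3080 to 3342 scaled CPM in fed libraries, with no overlap. In fed E2 libraries the sum was 2821 to 3080 scaled CPM. By member, 3 were higher and 3 lower in fasted than in fed E5 (median log2 fold change -0.1). Fasted E5 over fed E2 gave 1 of each (median -0.02). In bulk tissue, fewer cells of a type and less RNA per cell cannot be told apart.

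Some libraries held transcripts of neighbouring tissues, and single fasted libraries held by far the most. Fasted library E5_216 held 3112 scaled CPM of Prl (prolactin) and 1260 scaled CPM of Gh (growth hormone), both made by the anterior pituitary. Of 10 pituitary markers listed, 4 were tested, and the sums given here are over all 10. They summed to 36.2, 2.72, 4401 and 188.7 scaled CPM in fasted libraries E5_181, E5_199, E5_216 and E5_223. In fed libraries 1 to 4 the sums were 2.45, 3.84, 1.25 and 22.1 scaled CPM. Fasted library E5_181 held 2983 scaled CPM of Ttr, the transthyretin gene of the choroid plexus, against 1 to 1.5 scaled CPM in the other fasted and 0.262 to 0.301 scaled CPM in the fed libraries. The 13 choroid plexus markers listed summed to 3179, 51.1, 51.9 and 45.7 scaled CPM in fasted libraries E5_181, E5_199, E5_216 and E5_223. In fed libraries they summed to 27.6 to 37.8 scaled CPM, below every fasted library. Of 9 tested, 7 were higher and 0 lower in fasted E5, 5 of them without overlap. The summed markers of other brain regions lay lower in all 4 fasted than in all 4 fed libraries. The 7 striatal markers summed to 337.9 to 452.3 scaled CPM in fasted and 551 to 842.6 scaled CPM in fed libraries, the 6 thalamic ones to 72.9 to 96.2 scaled CPM in fasted and 116.4 to 181.4 scaled CPM in fed libraries, and the 8 of cortex and hippocampus to 105.3 to 146.7 scaled CPM in fasted and 164.4 to 213.6 scaled CPM in fed libraries. Of these, 3 in each list passed the test as lower, and 2 striatal ones as higher. The part of these markers in the peptide and regional results was not tested. Lhb and Tshb of the pituitary and Kcnj13 of the choroid plexus are listed at 0. Values of E5 wild type libraries are given throughout in the order E5_181, E5_199, E5_216 and E5_223 for fasted and 1 to 4 for fed mice.

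Rn7sk was among the genes with the lowest p. It is the small nuclear RNA that holds back the elongation factor P-TEFb and carries no poly(A) tail. Rn7sk stood at 11160, 10720, 10420 and 9241 scaled CPM in the fasted E5 libraries, against 367, 447, 228 and 319 scaled CPM in the fed E5 libraries. In fed E2 it was 7053 scaled CPM in library E2_195 and at most 416.5 scaled CPM in the other 3 libraries. Fasted E5 knockouts held 7569 to 9502 scaled CPM of Rn7sk, against 316 to 457.5 scaled CPM in fed E5 knockouts. The 70 histone genes listed, most of whose messages also end without a poly(A) tail, split the libraries in the same way. They summed to 355.7 to 520.5 scaled CPM in fasted and 104.8 to 145.7 scaled CPM in fed E5 libraries, and in fed E2 to 305.5 scaled CPM in library E2_195 and 139.7 to 157 scaled CPM in the others. Library E2_195, labelled fed, thus lay nearer the fasted E5 libraries than the other fed E2 libraries did in both measures. The mean transcript length behind a count was 2080 to 2156 bases in fasted and 2287 to 2324 bases in fed E5 wild types. With a trend on transcript length taken out, 4470 genes were higher and 5835 lower in fasted than in fed E5 wild types, against 5320 and 4894 without that step. The median over cytosolic ribosomal protein genes was then 1.35, against 1.52, and that over endoplasmic reticulum stress genes 0.38, against 0.53. The part of the Rn7sk and histone differences in the other results was not tested.

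**Figure D1:**
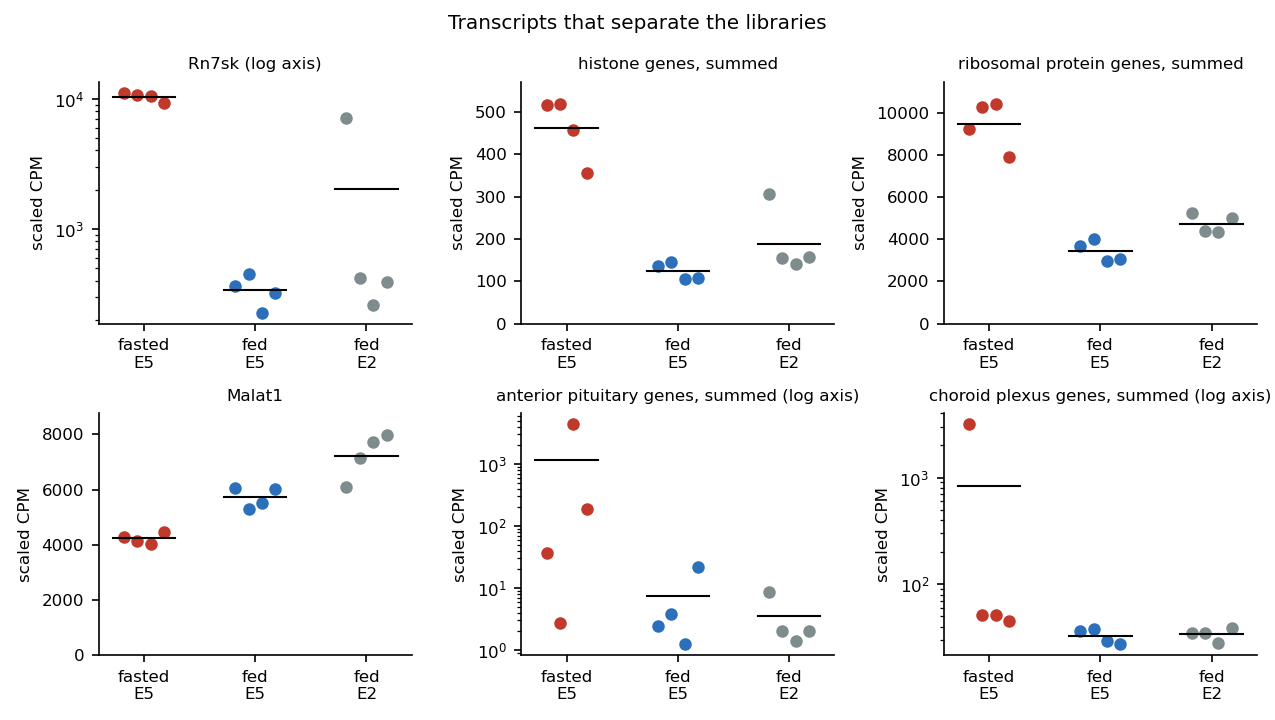
Levels (scaled CPM) of transcripts that set libraries apart, in fasted E5, fed E5 and fed E2 wild types; each point is a library, each bar a group mean, and 3 of the 6 panels have a log axis. Rn7sk is at 9241 to 11160 scaled CPM in the 4 fasted E5 libraries and at 7053 scaled CPM in 1 fed E2 library. Pituitary and choroid plexus transcripts are highest by far in single fasted libraries.

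Of 18591 genes tested, 5320 (28.6%) were higher and 4894 (26.3%) lower in fasted than in fed E5 wild types by edgeR's quasi-likelihood test at a Benjamini-Hochberg adjusted p under 0.05, together 54.9%. The 4 fasted libraries all lay above the 4 fed ones for 26.2% of genes and all below for 23.3%. The median size of the difference over all genes was 0.39 on the log2 scale. In E1 and E3 together, 5.13% of 15159 genes were higher and 5.59% lower, with a median size of 0.17. Fasted E5 over fed E2 gave 15.7% higher and 15% lower of 18753 genes. Fed E2 over fed E5, with no fasting, gave 11.4% higher and 9.77% lower of 18641 genes, with a median size of 0.21. Without the fed E2 library E2_195 these 2 contrasts called 5718 and 4732 genes, against 5749 and 3949 genes with it. Counts over gene lists are to be read against these shares. The p-values measure only the spread between these samples, and nothing in the labels says whether each came from a separate mouse.

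Npy, which encodes neuropeptide Y (chromosome 6, 49822710 to 49829507, mm10), had the largest fold difference of the feeding peptide genes. It stood at 18.2, 22.5, 44.8 and 35.5 scaled CPM in fasted libraries, against 6.12, 5.85, 4.86 and 3.95 scaled CPM in fed libraries. Every fasted library was above every fed one, and libraries E5_216 and E5_223 were the highest. The log2 fold change was 2.54 with an SE of 0.26 (edgeR adjusted p = 2.24e-05). Fed E2 libraries held 3.18 to 5.17 scaled CPM of Npy, in the range of fed E5, and the log2 fold change of fasted E5 over fed E2 was 2.93 (edgeR adjusted p = 8.03e-05). In E1 and E3 Npy rose by 1.62 on the log2 scale (edgeR adjusted p = 0.00051), and the difference of 0.86 between E5 and these lines did not pass the test (edgeR adjusted p = 0.056).

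Agrp, the melanocortin antagonist made by the same neurons as Npy, moved the other way. It had 4.28, 4.47, 4.24 and 4.97 scaled CPM in fasted libraries, against 7.98, 6.55, 7.35 and 7.68 scaled CPM in fed libraries. The groups did not overlap, and Agrp fell by 0.71 on the log2 scale (SE 0.12, edgeR adjusted p = 0.000492). Fed E2 libraries held 6.76 to 8.02 scaled CPM, so the gene was also lower in fasted E5 than in fed E2 within batch 20013 (log2 fold change -0.73, edgeR adjusted p = 0.00181). E1 and E3 gave -0.45 (edgeR adjusted p = 0.0571). The annotated exons of Agrp share 11.3% of their bases with Ctcf on the opposite strand and with a predicted gene. The sources used here do not say whether counting used the strand, so reads of genes that overlap cannot be told apart.

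Pomc, the precursor of the appetite-reducing melanocortins, passed the test through library E5_216. Its level was 18, 32.4, 328.1 and 27.6 scaled CPM in fasted libraries, against 22, 26.1, 12.2 and 17.8 scaled CPM in fed libraries. Apart from library E5_216 the groups overlapped. The log2 fold change was 2.39 (SE 0.79, edgeR adjusted p = 0.0229) with that library and 0.42 (edgeR adjusted p = 0.162) without it. The call was also lost without fed library 1 (2.45, edgeR adjusted p = 0.0516), fed library 3 (2.22, edgeR adjusted p = 0.0574) or fed library 4 (2.35, edgeR adjusted p = 0.054). Pituitary cells also make Pomc, and library E5_216 had the most pituitary transcripts. In E1 and E3 Pomc fell by 0.94 on the log2 scale (edgeR adjusted p = 0.00841). Cartpt, a peptide made together with Pomc products in the arcuate nucleus, had 43.9, 50.0, 27.3 and 28.8 scaled CPM in fasted libraries, against 32.9, 31.9, 22.5 and 24.0 scaled CPM in fed libraries. The groups overlapped and the difference of 0.44 did not pass the test (edgeR adjusted p = 0.0702), but it passed without library E5_216 (0.57, edgeR adjusted p = 0.0241) and without library E5_223 (0.55, edgeR adjusted p = 0.0251).

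**Figure D2:**
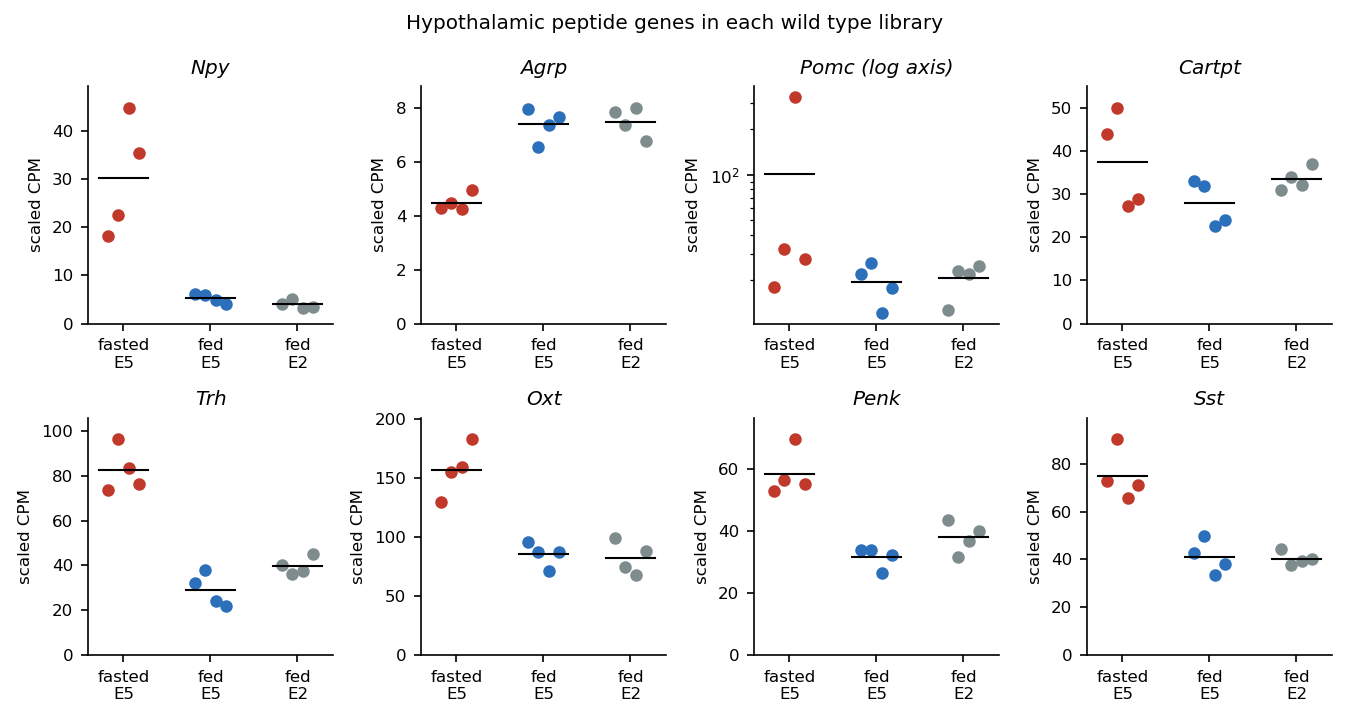
Levels (scaled CPM) of 8 peptide genes in each library of fasted E5, fed E5 and fed E2 wild types; points are libraries, bars are group means, and the Pomc panel has a log axis. Npy is at 18.2 to 44.8 scaled CPM in fasted E5 and at most 6.12 scaled CPM in either fed group, Agrp is at 4.24 to 4.97 scaled CPM in fasted E5 and at least 6.55 scaled CPM in either fed group, and 1 fasted library sets the Pomc mean.

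Among the other peptides, Trh, the thyrotropin-releasing hormone of the paraventricular nucleus, had the lowest p. It stood at 73.5, 96.3, 83.6 and 76.3 scaled CPM in fasted libraries, against 32.1, 38.0, 24.2 and 22.1 scaled CPM in fed libraries, and rose by 1.51 on the log2 scale (SE 0.15, edgeR adjusted p = 1.84e-05). The groups stood well apart. Fed E2 over fed E5 gave 0.44 for Trh (edgeR adjusted p = 0.0396) and E1 and E3 gave 0.33 (edgeR adjusted p = 0.0696), so the E5 value exceeded that of E1 and E3 by 1.08 (edgeR adjusted p = 0.00032). Oxt, which encodes oxytocin, had 130, 155, 159 and 183 scaled CPM in fasted libraries, against 95.6, 87.5, 71.0 and 87.1 scaled CPM in fed libraries. It rose by 0.88 (SE 0.11, edgeR adjusted p = 6.23e-05) with no overlap, while E1 and E3 gave 0.01. The opioid precursor Penk rose by 0.90 and somatostatin (Sst) by 0.88, and fed E2 over fed E5 gave 0.25 and -0.04 for them, both short of the test. Sst had 65.8 to 90.3 scaled CPM in fasted and 33.6 to 49.9 scaled CPM in fed libraries, and also rose in E1 and E3, by 0.57 (edgeR adjusted p = 0.0261).

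Of 28 feeding peptide genes listed, 26 were tested, Grp is listed at 0 and Galp was below the filter on low counts. Of the 26, 15 were higher and 2, Agrp and Bdnf, were lower, with a median log2 fold change of 0.61 against 0.00 over all genes. Only 7 of the 15 had no overlap between the groups. Fed E2 over fed E5 gave 1 higher and 3 lower of the 26 (median 0.07), and E1 and E3 gave 1 of each among 25 (median 0.18). Crh, the corticotropin-releasing hormone, had 3.23, 3.05, 8.04 and 6.79 scaled CPM in fasted libraries, against 2.25, 2.84, 1.72 and 3.14 scaled CPM in fed libraries. Its rise of 1.1 (edgeR adjusted p = 0.0118) came with an overlap, and the 2 high libraries are those with the highest pituitary sums. These libraries, E5_216 and E5_223, were also the highest in Npy and Cdkn1a, and the cause was not tested. Bdnf, the neurotrophin that restrains feeding, fell by 0.40 (edgeR adjusted p = 0.0222) with an overlap, and the call was lost without fasted library E5_181 (-0.34), fasted library E5_223 (-0.32) or fed library 3 (-0.31).

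Of 26 genes for feeding receptors and for leptin and insulin signalling, 13 were higher and 4 lower, with a median of 0.23. Fasted E5 over fed E2 gave 12 higher and 0 lower of these (median 0.30), and fed E2 over fed E5 gave 0 higher and 3 lower (median -0.16). E1 and E3 gave 2 higher and 1 lower (median 0.09). Mc4r, the melanocortin receptor that Agrp blocks, had 2.59, 4.93, 3.45 and 2.97 scaled CPM in fasted libraries, against 1.42, 1.57, 1.42 and 0.866 scaled CPM in fed libraries. It rose by 1.39 (SE 0.25, edgeR adjusted p = 0.000599) without overlap, against 0.18 in E1 and E3. The other melanocortin receptor of the brain, Mc3r, rose by 0.67 and the cannabinoid receptor Cnr1 by 0.63. The orexin receptor Hcrtr2 fell by 0.46 (edgeR adjusted p = 0.00117). In fed E2 over fed E5 these receptors gave 0.18 for Mc4r, -0.22 for Mc3r and -0.11 for Cnr1, which did not pass the test, and -0.28 for Hcrtr2, which did. Irs4, an insulin receptor substrate abundant in hypothalamus, rose by 0.55 (edgeR adjusted p = 0.00188). In E1 and E3 Irs4 gave -0.105 and did not pass (edgeR adjusted p = 0.608).

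Genes of the thyroid axis were divided. Of 10 tested, 5 were higher and 3 lower, with a median of 0.32. Besides Trh, Hr, a corepressor gene that thyroid hormone is known to induce, stood at 54.8, 65.3, 87.9 and 88.3 scaled CPM in fasted libraries, against 37.2 to 42.9 scaled CPM in fed libraries, a rise of 0.87 (edgeR adjusted p = 0.000297). Dio2, the deiodinase that activates thyroid hormone, rose by 0.55 (edgeR adjusted p = 0.01) and by 0.82 in E1 and E3 (edgeR adjusted p = 0.0159). The receptor gene Thrb fell by 0.72 in E5 and gave -0.37 in fed E2 over fed E5, where it also passed the test.

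Glucocorticoid target genes were higher in fasted E5 mice against both fed groups and in E1 and E3. Of 26 tested, 19 were higher and 1 lower in fasted E5 (median 0.75), 19 were higher and 0 lower in fasted E5 over fed E2 (median 0.78), and 3 were higher and 5 lower in fed E2 over fed E5 (median -0.17). E1 and E3 gave 14 higher and 0 lower of 25, with a median of 0.54. Txnip is listed at 0 and Lcn2 was below the filter. The summed level was 842.7 to 1286 scaled CPM in fasted and 646.5 to 796.3 scaled CPM in fed E5 libraries. Library E5_199 lay at or near the fed range in several of these genes. With libraries E5_181, E5_216 and E5_223 left out for their pituitary or choroid plexus transcripts, library E5_199 alone remained on the fasted side, and 10 of the 26 were higher and 2 lower with a median of 0.48.

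Angptl4, an inhibitor of lipoprotein lipase, had 5.50, 5.18, 8.40 and 7.39 scaled CPM in fasted libraries, against 1.46, 1.57, 1.98 and 1.25 scaled CPM in fed libraries. It rose by 2.08 (SE 0.21, edgeR adjusted p = 1.82e-05) with no overlap, by 0.92 in E1 and E3, and by 0.61 in fed E2 over fed E5 (edgeR adjusted p = 0.0359). Mt1, a metal-binding metallothionein, stood at 123, 146, 176 and 137 scaled CPM in fasted libraries, against 55.8, 50.6, 45.8 and 60.6 scaled CPM in fed libraries. It rose by 1.46 (SE 0.12, edgeR adjusted p = 6.09e-06), by 1.88 in fasted E5 over fed E2, and by 1.01 in E1 and E3 (edgeR adjusted p = 0.000919), while fed E2 over fed E5 gave -0.43 and did not pass. The metallothionein gene Mt2, also on the list, did not rise with Mt1. Mt2 gave -0.25 in fasted over fed E5 (SE 0.33, edgeR adjusted p = 0.541) and -0.075 in fasted E5 over fed E2. The sulfotransferase gene Sult1a1 rose by 1.77 in E5 and by 1.11 in E1 and E3.

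Cdkn1a, the cell cycle inhibitor p21, varied widely among the fasted mice. It had 9.01, 7.81, 34.6 and 21.4 scaled CPM in fasted libraries, against 4.42, 6.03, 4.56 and 4.82 scaled CPM in fed libraries. All fasted libraries were above the fed ones, and libraries E5_216 and E5_223 stood far above the other 2. The log2 fold change was 1.88 (SE 0.41, edgeR adjusted p = 0.00208), against 1.77 in E1 and E3. Tsc22d3, the leucine zipper gene GILZ, had 92.6, 114, 157 and 119 scaled CPM in fasted libraries, against 55.0 to 59.6 scaled CPM in fed libraries, and rose by 1.1 (edgeR adjusted p = 4.56e-05). E5 knockouts gave 0.22 for Tsc22d3, but the difference of 0.86 between the genotypes did not pass the test (edgeR adjusted p = 0.537). The 1 gene of the list called lower was Mertk, a phagocytic receptor of astrocytes and microglia, which fell by 0.30 (edgeR adjusted p = 0.0442) with overlap. Mertk lost the call in 6 of the 8 fits that each left out 1 library, with values of -0.21 to -0.31. Zbtb16 gave -0.40, Mt2 -0.25 and Klf9 -0.02, and none of these passed the test.

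Fkbp5 and Sgk1 were chosen after their values were seen. Fkbp5, a chaperone of the glucocorticoid receptor, had 44.8, 38.4, 77.4 and 81.4 scaled CPM in fasted libraries, against 30.6, 36.2, 42.9 and 36.7 scaled CPM in fed libraries. Sgk1, the serum and glucocorticoid regulated kinase, had 132, 84.9, 157 and 143 scaled CPM in fasted libraries, against 67.3, 86.9, 81.4 and 76.6 scaled CPM in fed libraries. In both genes library E5_199 lay within the fed range and the other fasted libraries above it. Their log2 fold changes were 0.73 for Fkbp5 (edgeR adjusted p = 0.0127) and 0.74 for Sgk1 (edgeR adjusted p = 0.00185), against 0.89 and 0.83 in E1 and E3. Against library E5_199 alone they were 0.09 (edgeR adjusted p = 0.692) and 0.15 (edgeR adjusted p = 0.444).

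**Figure D3:**
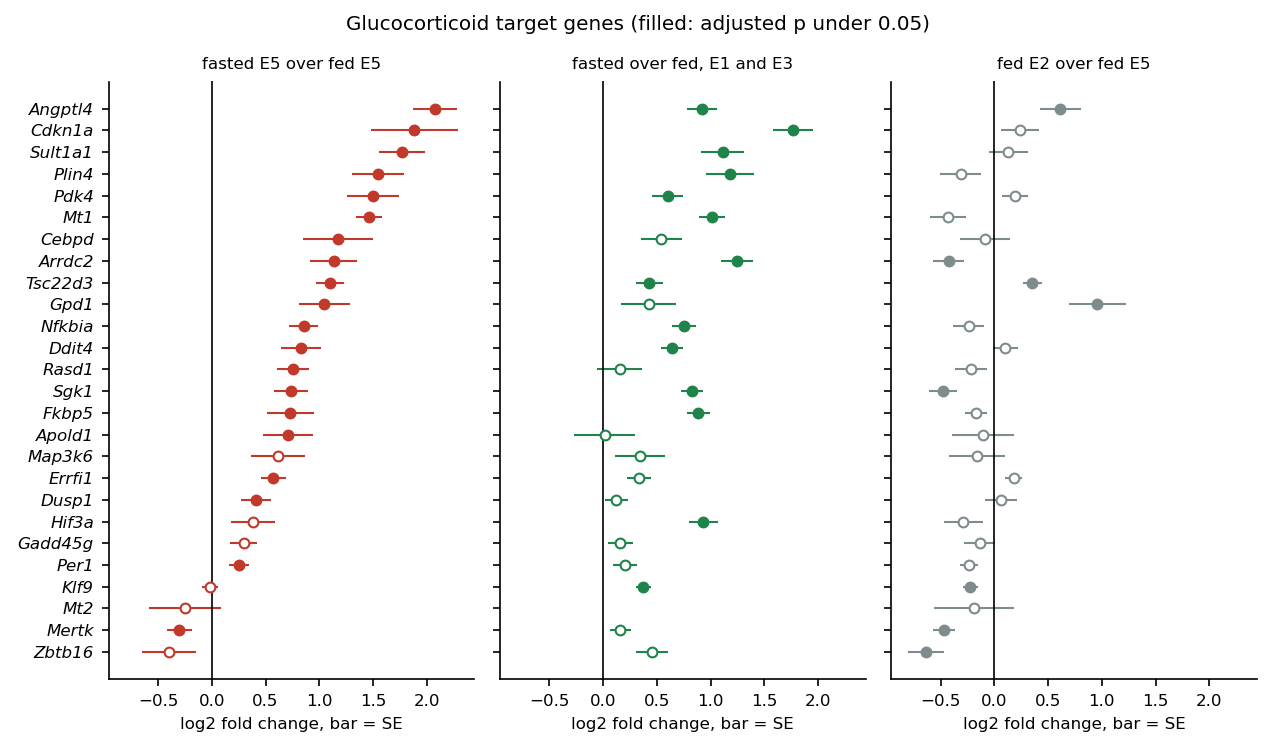
Log2 fold changes with SE of 26 glucocorticoid target genes in fasted over fed E5, in fasted over fed E1 and E3, and in fed E2 over fed E5 wild types; filled points have an adjusted p under 0.05. In E5 19 genes are higher and 1 lower, in E1 and E3 14 are higher, and in fed E2 over fed E5 3 are higher and 5 lower.

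A search of the 250 bases before each gene's start found a glucocorticoid receptor motif, AGAACA and TGT with any 3 bases between them, on either strand at 1 of 23 list genes matched, Sgk1, and at 0.4292% of 27025 mouse genes in the RefSeq table (GRCm38.p6). The sequences of Sgk1, with its 2 overlapping matches, 1 on each strand, in capitals, and of Npy, which holds none of the 3 motifs searched, show these windows 5′ to 3′ on the gene's strand. They lie at chr10:21993640-21993889 (Sgk1, plus strand) and chr6:49822460-49822709 (Npy, plus strand). A match describes letters only, and no match says nothing of the receptor.
Sgk1: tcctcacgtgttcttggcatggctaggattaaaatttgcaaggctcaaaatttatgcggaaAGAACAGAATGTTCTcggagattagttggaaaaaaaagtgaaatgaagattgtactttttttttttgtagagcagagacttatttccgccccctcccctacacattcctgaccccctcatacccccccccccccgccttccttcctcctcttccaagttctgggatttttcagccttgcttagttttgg
Npy: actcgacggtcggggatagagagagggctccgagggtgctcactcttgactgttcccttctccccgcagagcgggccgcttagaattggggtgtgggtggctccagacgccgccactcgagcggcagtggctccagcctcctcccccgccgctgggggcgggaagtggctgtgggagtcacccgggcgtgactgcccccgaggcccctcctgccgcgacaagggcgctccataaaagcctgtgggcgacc

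Genes for the use of fat and ketone bodies were mostly higher. Of 30 tested, 20 were higher and 1 lower, with a median of 0.61. Fasted E5 over fed E2 gave 12 higher and 1 lower (median 0.24), fed E2 over fed E5 gave 6 higher and 1 lower (median 0.11), and E1 and E3 gave 5 higher and 0 lower (median 0.08). Pdk4, the kinase that closes pyruvate dehydrogenase, was chosen after its values were seen and belongs to the glucocorticoid list too. It had 11, 10.3, 23.8 and 13.2 scaled CPM in fasted libraries, against 4.65 to 5.76 scaled CPM in fed libraries, and rose by 1.5 (edgeR adjusted p = 0.00031). Ucp2, a mitochondrial carrier known as an uncoupling protein, had 57.6 to 61.6 scaled CPM in fasted and 26.3 to 38.2 scaled CPM in fed libraries, a rise of 0.99, against 0.17 in E1 and E3. Slc16a7, a neuronal carrier of lactate and ketone bodies, fell by 0.63 and gave -0.37 in fed E2 over fed E5, where it passed too.

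Genes of glycolysis and sterol synthesis also differed between the fed groups. Of 23 genes for glucose uptake and glycolysis, 19 were higher and 1 lower in fasted E5 (median 0.58), 14 were higher and 0 lower in fed E2 over fed E5 (median 0.35), and 11 were higher and 1 lower in fasted E5 over fed E2 (median 0.23). E1 and E3 gave 1 higher and 1 lower (median 0.12). Aldoc, an aldolase of astrocytes, had 575 to 724 scaled CPM in fasted E5, 364 to 409 scaled CPM in fed E2 and 246 to 359 scaled CPM in fed E5 libraries. Gapdh differed by 0.97 in fasted over fed E5 and by 0.10 in fed E2 over fed E5. Pfkfb3, which sets the pace of glycolysis, was the 1 lower gene, at -0.29 in E5 (edgeR adjusted p = 0.00369) and -0.34 in E1 and E3 (edgeR adjusted p = 0.0159). Of 24 genes of cholesterol synthesis, 13 were higher and 0 lower in fasted E5, and 13 of 23 were higher and 0 lower in fed E2 over fed E5, with a median of 0.27 in each. Within batch 20013, fasted E5 over fed E2 gave 2 higher and 1 lower and a median of 0.00. E1 and E3 gave 0 higher and 1 lower (median 0.02). Acat2, a cytosolic thiolase at the start of the pathway, had 46.2, 53.4, 47.7 and 44.5 scaled CPM in fasted E5, 33.05 to 44.3 scaled CPM in fed E2 and 26.4 to 32.75 scaled CPM in fed E5 libraries. It rose by 0.74 in fasted over fed E5 (edgeR adjusted p = 5.17e-05) and by 0.42 in fed E2 over fed E5 (edgeR adjusted p = 0.0132).

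Every measured gene for a cytosolic ribosomal protein was higher in fasted E5 wild types. Of 77 listed, 70 were tested, and in all 70 the 4 fasted libraries lay above the 4 fed ones, with a median log2 fold change of 1.52. Rpl13, Rpl24, Rpl35 and Rpl35a are listed at 0. The summed level was 7938 to 10470 scaled CPM in fasted E5, 4337 to 5241 scaled CPM in fed E2 and 2991 to 4005 scaled CPM in fed E5 libraries. The 3 ranges did not overlap, and fed E2 lay between the others. Fed E2 over fed E5 gave 42 higher and 0 lower (median 0.45), and 41 higher and 4 lower without library E2_195. Fasted E5 over fed E2 gave 68 higher (median 1.06), and E1 and E3 gave 65 higher and 0 lower with a median of 0.48. The E5 difference exceeded that of E1 and E3 by the test in 67 of the 70.

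Rps27, a protein of the small subunit, had 101, 102, 112 and 94.1 scaled CPM in fasted libraries, against 31.8, 29.6, 26.1 and 26.1 scaled CPM in fed libraries, a rise of 1.85 (SE 0.09, edgeR adjusted p = 1.27e-07). Rpl37 of the large subunit had 103, 112, 121 and 93.3 scaled CPM in fasted libraries, against 29.9 to 35.6 scaled CPM in fed libraries. It rose by 1.71 (edgeR adjusted p = 4.48e-07), against 0.55 in E1 and E3. These genes have many near-identical pseudogenes, between which counting can divide reads. Nuclear genes of the respiratory chain went with them: of 58 tested, 56 were higher and 1, Ndufs4, was lower (median 0.97). Fasted E5 over fed E2 gave 42 higher and 0 lower of these (median 0.43), fed E2 over fed E5 gave 42 higher and 0 lower (median 0.48), and E1 and E3 gave 12 higher and 0 lower (median 0.31). Ndufb5, an accessory subunit of complex I, had 58.5 to 71.9 scaled CPM in fasted E5, 43.5 to 54.7 scaled CPM in fed E2 and 29.9 to 34.9 scaled CPM in fed E5 libraries.

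Histone genes of the replication-dependent clusters made up 9 of the 12 genes with the largest rises among protein-coding genes without overlap, a pool of 4008. Hist1h4d had 52.2, 50.1, 45.2 and 36.8 scaled CPM in fasted libraries, against 6.79, 7.77, 4.51 and 5.25 scaled CPM in fed libraries. It rose by 2.93 (SE 0.16, edgeR adjusted p = 5.5e-07). In fed E2 it had 29.7 scaled CPM in library E2_195 and 7.51 to 9.35 scaled CPM in the others. E1 and E3 gave 0.42 (edgeR adjusted p = 0.0743), where the level was 32.4 ± 1.99 CPM in fasted E1 (SD, n = 3) and 32.2 ± 3.76 CPM in fed E1 mice (SD, n = 4). In E3 it was 71.6 ± 9.26 CPM in fasted and 39.1 ± 7.06 CPM in fed mice (SD, n = 3 each). Hist1h3e rose by 2.62 in E5 and gave 0.29 in E1 and E3, and Hist1h4c rose by 2.72 and gave 0.27. Copies of a histone type are near-identical, so reads may be divided between them. Of the long nuclear RNAs, Malat1 fell by 0.43 and Meg3 by 0.93 in fasted E5, and fed E2 over fed E5 gave 0.33 for Malat1, which passed, and -0.15 for Meg3, which did not.

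Genes of protein stress were higher in fasted than in fed E5 and also in fed E2 than in fed E5. Of 21 endoplasmic reticulum stress genes, 15 were higher and 0 lower in fasted E5 (median 0.53), 12 were higher and 0 lower in fed E2 over fed E5 (median 0.44), and 6 were higher and 1 lower in fasted E5 over fed E2 (median 0.09). E1 and E3 gave 2 higher and 0 lower (median 0.09). Herpud1, a membrane protein of the degradation pathway, differed between the fed groups by 0.11, which did not pass. It had 59.3, 55.6, 67.3 and 57.7 scaled CPM in fasted E5, 22.7 to 36.7 scaled CPM in fed E2 and 21.7 to 33.5 scaled CPM in fed E5 libraries, and rose by 1.17 over fed E5 (edgeR adjusted p = 2.33e-05), by 1.05 over fed E2 and by 0.34 in E1 and E3. Xbp1, the transcription factor of the unfolded protein response, rose by 1.09 in fasted E5 and by 0.51 in fed E2 over fed E5. Hspa5, the chaperone BiP, was chosen for its promoter. It had 253, 337, 305 and 225 scaled CPM in fasted E5, 222 to 252 scaled CPM in fed E2 and 135 to 210 scaled CPM in fed E5 libraries.

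Of 20 targets of the amino acid stress factor ATF4, 15 were higher and 0 lower in fasted E5 (median 0.50), against 8 higher and 0 lower in fasted E5 over fed E2 (median 0.32), 7 higher and 0 lower in fed E2 over fed E5 (median 0.17) and 0 called in E1 and E3 (median 0.10). Asns, asparagine synthetase, had 69.4, 82.4, 73.9 and 62.4 scaled CPM in fasted libraries, against 44.7, 40.6, 28.6 and 33.8 scaled CPM in fed libraries, a rise of 0.97 (edgeR adjusted p = 8.9e-05). The serine synthesis enzyme Psat1 rose by 1.04, and by 0.46 in fed E2 over fed E5. Of 23 heat shock chaperones, 15 were higher and 1 lower (median 0.41), and 11 were higher and 1 lower with the length trend taken out (median 0.22). Fed E2 over fed E5 gave 11 higher and 0 lower (median 0.29), fasted E5 over fed E2 gave 3 higher and 2 lower (median 0.11), and E1 and E3 gave 0 higher and 1 lower (median 0.10). Hspa8, the constitutive Hsc70, had 1287 to 1707 scaled CPM in fasted E5, 796.4 to 1006 scaled CPM in fed E2 and 588.6 to 827.5 scaled CPM in fed E5 libraries.

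The promoter windows of some of these stress genes hold known motifs. The endoplasmic reticulum stress element, CCAAT and CCACG with any 9 bases between them, on either strand, is in the 250 bases before 9 of 18 list genes matched and before 0.1295% of the 27025 genes. The amino acid response element searched as TGATGNAA is before 6 of 18 ATF4 targets and before 3.907% of genes. Some genes with a match passed as higher in fasted over fed E5 and others did not. A match describes letters only, and its part in the levels was not tested. The windows of Hspa5 (chr2:34771840-34772089, plus strand) and Asns (chr6:7693210-7693459, minus strand) are shown 5′ to 3′ on the gene's strand, from RefSeq on GRCm38.p6, with the match in capitals.
Hspa5: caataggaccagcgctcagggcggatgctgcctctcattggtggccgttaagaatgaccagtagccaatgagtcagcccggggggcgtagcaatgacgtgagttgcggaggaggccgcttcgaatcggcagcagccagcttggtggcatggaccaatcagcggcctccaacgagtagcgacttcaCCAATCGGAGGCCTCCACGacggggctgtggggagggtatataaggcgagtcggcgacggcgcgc
Asns: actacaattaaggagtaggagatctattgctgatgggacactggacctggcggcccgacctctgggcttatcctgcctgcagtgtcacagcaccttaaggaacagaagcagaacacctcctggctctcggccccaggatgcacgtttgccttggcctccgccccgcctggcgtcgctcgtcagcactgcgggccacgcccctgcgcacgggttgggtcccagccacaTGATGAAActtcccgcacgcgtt

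Cold-inducible RNA-binding genes were higher in E5 and in the lines with a shared batch. Rbm3, which binds RNA in cooled cells, had 71.9, 75.1, 95.2 and 68.6 scaled CPM in fasted libraries, against 30.2, 30.8, 25.4 and 23.1 scaled CPM in fed libraries. It rose by 1.51 (SE 0.12, edgeR adjusted p = 4.96e-06) and by 1.03 in E1 and E3 (edgeR adjusted p = 0.00152). Its relative Cirbp rose by 1.13 and by 0.62. Both also passed in fed E2 over fed E5, at 0.62 for Rbm3 and 0.64 for Cirbp. Of 9 genes of this list 8 were higher and 0 lower (median 0.55), and 7 were higher in fed E2 over fed E5 (median 0.44).

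Immediate early genes, which neurons switch on when they fire, were divided. Of 22 tested, 5 were higher and 4 lower, with a median of -0.17, but with a trend on GC content taken out 3 were higher and 10 lower (median -0.32), and with the length trend taken out 4 were higher and 7 lower (median -0.19). E5 knockouts gave 2 higher and 5 lower (median -0.33), E1 and E3 gave 0 higher and 1 lower (median -0.13), and fed E2 over fed E5 called 0 (median -0.05). Npas4 had 2.94, 3.22, 4.08 and 4.42 scaled CPM in fasted libraries, against 5.65, 5.94, 9.89 and 10.8 scaled CPM in fed libraries. It fell by 1.13 (edgeR adjusted p = 0.00161). For Npas4 fasted E5 over fed E2 gave -0.52 (edgeR adjusted p = 0.0593) and fed E2 over fed E5 gave -0.615 (edgeR adjusted p = 0.0668). In E1 and E3 it gave -0.745 (edgeR adjusted p = 0.0565), and none of these passed. Arc, a synaptic capsid protein, had 6.24 to 6.85 scaled CPM in fasted and 10.7 to 11.8 scaled CPM in fed libraries, a fall of 0.75 (edgeR adjusted p = 9.99e-05). Fed E2 libraries held 9.32 to 11.8 scaled CPM of Arc, and the fall against fed E2 was 0.70 (edgeR adjusted p = 0.00116). Dusp6, a phosphatase that turns off ERK, rose by 1.22 and gave 0.15 in E1 and E3, which did not pass. In the circadian clock, 8 of 17 genes were higher and 4 lower (median 0.25). Fasted E5 over fed E2 gave 3 higher and 2 lower (median 0.09). Fed E2 over fed E5 gave 2 higher and 4 lower (median -0.06), and E1 and E3 gave 1 higher and 0 lower (median 0.05). The activator Arntl fell by 0.61 and the nuclear receptor Rora by 1.34, while the output factor Tef rose by 0.63. In fed E2 over fed E5 Arntl gave -0.28, which passed, and Rora -0.46 and Tef 0.18, which did not. In E1 and E3 they gave -0.27, -0.46 and 0.14, and none passed.

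Of 32 genes of autophagy and the FoxO response, 19 were higher and 2 lower (median 0.40), against 9 higher and 0 lower in fed E2 over fed E5 (median 0.10) and 4 higher and 2 lower in E1 and E3 (median 0.07). Ctsd, the lysosomal protease cathepsin D, had 65.6, 57.1, 57.0 and 53.0 scaled CPM in fasted libraries, against 27.2, 28.1, 22.7 and 27.3 scaled CPM in fed libraries. It rose by 1.15 (edgeR adjusted p = 4.81e-06) and gave -0.01 in E1 and E3 and -0.20 in fed E2 over fed E5. The exons of Ctsd share 34.4% of their bases with the predicted gene Gm49369. Lamp1, a lysosomal membrane protein, rose by 0.72 and gave 0.19 in E1 and E3, which did not pass. Tfeb, a transcription factor of lysosome genes, fell by 0.63 in E5 and by 0.72 in E1 and E3 (edgeR adjusted p = 0.00212).

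Astrocyte markers were higher. Of 14 tested, 11 were higher and 0 lower, each without overlap, with a median of 0.60. Between the fed groups, E2 over E5, 4 were higher and 0 lower (median 0.12), and fasted E5 over fed E2 gave 9 higher and 0 lower (median 0.51). E1 and E3 gave 4 higher and 0 lower of the 14 (median 0.14). The E5 difference exceeded that of E1 and E3 by the test in 8 of the 14. Agt, the angiotensin precursor of astrocytes, had 260, 282.4, 350 and 319 scaled CPM in fasted libraries, against 104, 130, 89.5 and 93.5 scaled CPM in fed libraries. It rose by 1.55 (SE 0.12, edgeR adjusted p = 6.01e-06), by 1.58 over fed E2 and by 0.62 in E1 and E3 (edgeR adjusted p = 0.00511), and fed E2 over fed E5 gave -0.04. Gjb6, a connexin, rose by 1.06 in E5 and by 0.52 in E1 and E3. Slc1a3, the glutamate transporter GLAST, rose by 0.95 and by 0.30.

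Of 13 microglial markers, 8 were higher and 0 lower, with a median of 0.68, and P2ry12, Itgam, Gpr34 and P2ry13 are listed at 0. Fasted E5 over fed E2 gave 8 higher and 0 lower (median 0.49), and fed E2 over fed E5 gave 3 higher and 1 lower (median 0.26). C1qa, a chain of the first complement component, had 17.3, 18.7, 13.1 and 13.2 scaled CPM in fasted libraries, against 6.36, 7.95, 6.62 and 5.25 scaled CPM in fed libraries. It rose by 1.26 (edgeR adjusted p = 5.73e-05), gave 0.51 in fed E2 over fed E5 (edgeR adjusted p = 0.0226), and gave 0.04 in E1 and E3, 1.14 less than in E5 (edgeR adjusted p = 0.000103). Tyrobp, a signalling adaptor, rose by 1.41 and gave 0.24 in E1 and E3, where 0 of 13 microglial markers were called (median -0.07).

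Endothelial markers were more often lower than higher. Of 15 tested, 7 were lower and 1 higher (median -0.41), and E1 and E3 gave 4 lower and 0 higher (median -0.53), while fed E2 over fed E5 gave 1 lower and 0 higher (median -0.19). Fasted E5 over fed E2 gave 4 lower and 0 higher (median -0.31). Without library E2_195 that contrast gave 3 lower and 2 higher (median -0.04), so its median rested largely on this library. Tek, the angiopoietin receptor, had 10.5, 8.69, 6.89 and 13.1 scaled CPM in fasted libraries, against 19.6, 16.1, 21.8 and 21.4 scaled CPM in fed libraries, and fell by 1 on the log2 scale (edgeR adjusted p = 0.000484). Ptprb fell by 0.96 in E5 and by 0.80 in E1 and E3 (edgeR adjusted p = 0.0388). Flt1, a receptor of the growth factor VEGF, fell by 0.73 with an overlap and by 0.88 in E1 and E3. Ly6c1 was the 1 endothelial marker called higher in fasted over fed E5, by 0.81.

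Markers of mature oligodendrocytes were split, 4 higher and 5 lower of 15 in fasted E5 (median -0.19). Within batch 20013, in fasted E5 over fed E2, 1 was higher and 9 were lower (median -0.37). Fed E2 over fed E5 gave 3 higher and 0 lower (median 0.2), and E1 and E3 gave 1 higher and 2 lower (median -0.11). Ugt8a, an enzyme of myelin lipid synthesis, had 34.5, 39.5, 32.1 and 31.6 scaled CPM in fasted libraries, against 59.0, 45.7, 63.1 and 58.3 scaled CPM in fed libraries. It fell by 0.71 (edgeR adjusted p = 0.00026) and by 0.66 in E1 and E3 (edgeR adjusted p = 0.0133). Apod, a lipid-binding lipocalin, rose by 1.21. Of 14 markers of precursors and newly formed oligodendrocytes, 2 were higher and 6 lower (median -0.24).

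Of the 18 hypothalamic regional transcription factors tested, 7 were higher and 3, Lmx1b, Barhl1 and Sim1, were lower, with a median of 0.30, and with a trend on GC content taken out 4 were higher and 4 lower. Fed E2 over fed E5 gave 1 of each (median -0.05), and E1 and E3 called 0 (median -0.09). Lmx1b, a factor of the posterior hypothalamus and midbrain, had 6.30, 2.17, 3.09 and 3.04 scaled CPM in fasted libraries, against 9.05, 11.3, 19.4 and 16.6 scaled CPM in fed libraries, and fell by 1.92 (edgeR adjusted p = 0.000356). The factors Lmx1a and Foxa1, which are not on the list, fell by 1.81 and 1.69, each without overlap. Foxb1, a mammillary factor on the list, gave -0.63 and did not pass (edgeR adjusted p = 0.226). Slc6a3, the dopamine transporter of midbrain neurons, had 3.20, 4.51, 1.78 and 2.23 scaled CPM in fasted libraries, against 8.29, 4.24, 47.1 and 26.9 scaled CPM in fed libraries, and 42.9 and 48.7 scaled CPM in 2 fed E2 libraries. Fed libraries thus differed among themselves, and the fall of 2.88 (edgeR adjusted p = 0.00228) came with an overlap. E1 and E3 gave -0.27 for Lmx1b and 0.11 for Foxa1. Six6, a factor of the ventral hypothalamus, rose by 1.20, and Otp of the paraventricular nucleus by 0.48.

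**Figure D4:**
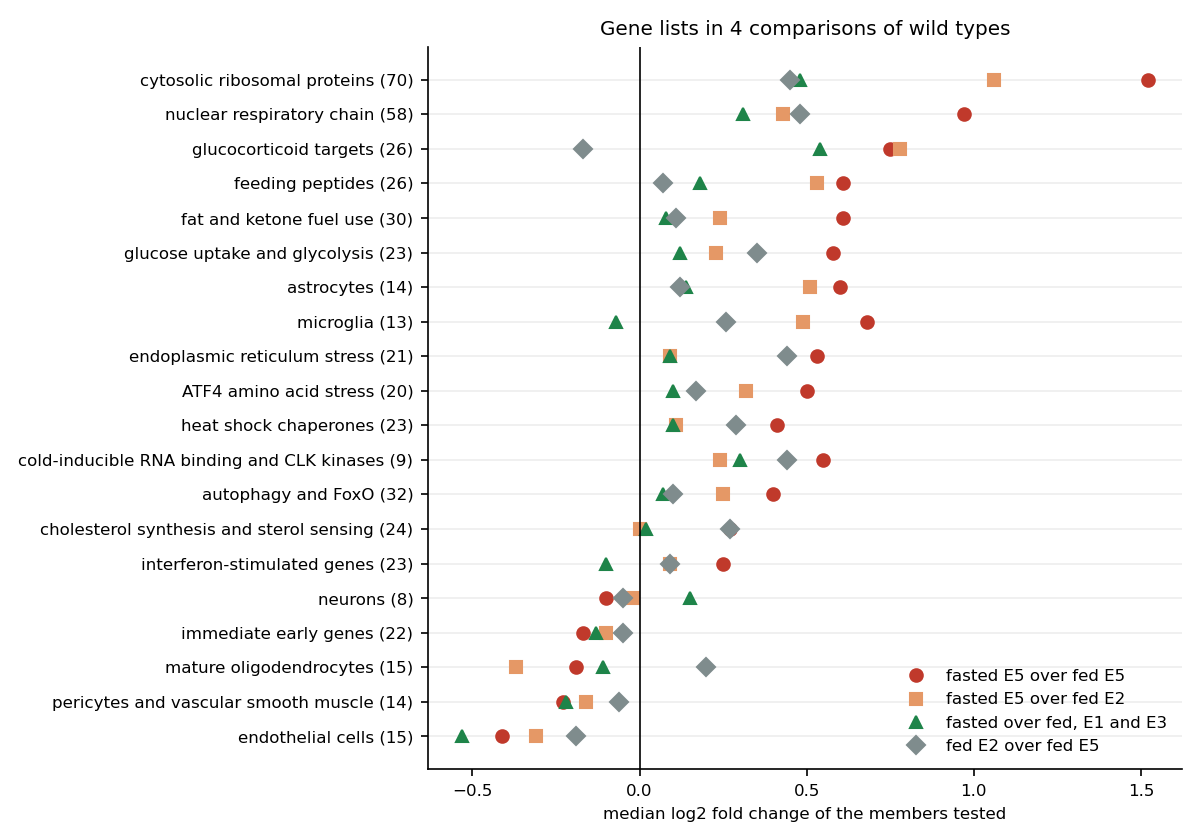
Median log2 fold change of the members of 20 gene lists in 4 contrasts of wild types, with the number of genes tested in fasted over fed E5 in brackets. Glucocorticoid targets have medians of 0.75, 0.78 and 0.54 in the 3 fasting contrasts and -0.17 in fed E2 over fed E5, while cholesterol synthesis has 0.27 in fasted over fed E5 and in fed E2 over fed E5 alike.

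Protein-coding genes called in the same direction in fasted over fed E5, in fasted E5 over fed E2 and in E1 and E3, with no overlap in E5 and a mean log2 CPM of at least 1 were ranked by size. Besides Npy, Angptl4 and Cdkn1a, those with the largest rises included Fbln5, an elastic fibre protein. Fbln5 had 31.0, 35.5, 40.2 and 28.9 scaled CPM in fasted libraries, against 6.95, 8.34, 7.05 and 8.66 scaled CPM in fed libraries. It rose by 2.14 (SE 0.13, edgeR adjusted p = 7.25e-07), by 2.27 over fed E2 and by 0.83 in E1 and E3 (edgeR adjusted p = 0.00932), and fed E2 over fed E5 gave -0.15. The apolipoprotein Apoc1 rose by 1.89 and by 0.97 in E1 and E3. Kcne2, a potassium channel subunit, and F5, coagulation factor V, were also among them. Both are made by the choroid plexus, and their rises of 3.57 and 2.30 were 1.48 and 1.45 without library E5_181, in which they reached 11.5 and 24.9 scaled CPM.

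Prr5l, a partner of the kinase complex mTORC2, led the falls. It had 31.3, 29.1, 17.9 and 24.8 scaled CPM in fasted libraries, against 84.8, 62.9, 151 and 105 scaled CPM in fed libraries. It fell by 1.96 (SE 0.24, edgeR adjusted p = 6.34e-05), by 1.30 against fed E2 and by 0.91 in E1 and E3 (edgeR adjusted p = 0.00208), and fed E2 over fed E5 gave -0.67, which passed too. Ninj2, an adhesion protein of glia, had 5.47, 4.8, 2.14 and 3.16 scaled CPM in fasted libraries, against 9.30 to 19.5 scaled CPM in fed libraries, and fell by 1.84 in E5 and by 1.31 in E1 and E3 (edgeR adjusted p = 0.00084). St18, a zinc finger factor, fell by 1.5 and by 0.68. Rgs6, a regulator of G protein signalling, fell by 1.71 and by 0.48. Pkd2l1, an acid-sensing channel of neurons that contact cerebrospinal fluid, fell by 1.40 and by 0.90.

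Over the 14841 genes tested in both, the E5 differences and those of E1 and E3 had a Pearson r of 0.48, a description across genes, which are not independent replicates. No library is shared between the 2 contrasts. Of the 766 genes higher in E1 and E3, 635 (82.9%) were also higher in E5, where they made up 13.2% of 4792. Of the 841 lower ones, 681 (81%) were lower in E5, 18.7% of 3641. E5 called 15 of the higher genes lower and 10 of the lower genes higher. E3 libraries held 69.8 to 136 CPM of the Y-linked gene Ddx3y, E1 wild types at most 0.064 CPM and E5 wild types 0. The contrast of E1 and E3 together thus joins a line with this Y-linked transcript and a line nearly without it.

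The E5 difference departed from that of E1 and E3 in 14.4% of 15383 genes upward and 12.6% downward. Lrrtm4, Dok6, Robo2 and Dpp10 were among the 6 downward genes of lowest p. Lrrtm4, a synapse-organising membrane protein, had 761.6, 762.4, 619.4 and 900.3 scaled CPM in fasted libraries, against 1978, 1490, 1934 and 1815 scaled CPM in fed libraries. It fell by 1.24 in E5 and gave 0.01 in E1 and E3, a difference of -1.33 (SE 0.16, edgeR adjusted p = 2.25e-05). Dok6, an adaptor of the Ret receptor, gave -0.99 in E5 and 0.04 in E1 and E3. Robo2, a receptor of the guidance protein Slit, gave -0.97 and 0.03, and the channel subunit Dpp10 gave -0.97 and -0.01. In fed E2 over fed E5 these 4 genes gave -0.67, -0.54, -0.46 and -0.54, and each passed the test. The exons of Lrrtm4 share 25.1% of their bases with other annotated genes.

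**Figure D5:**
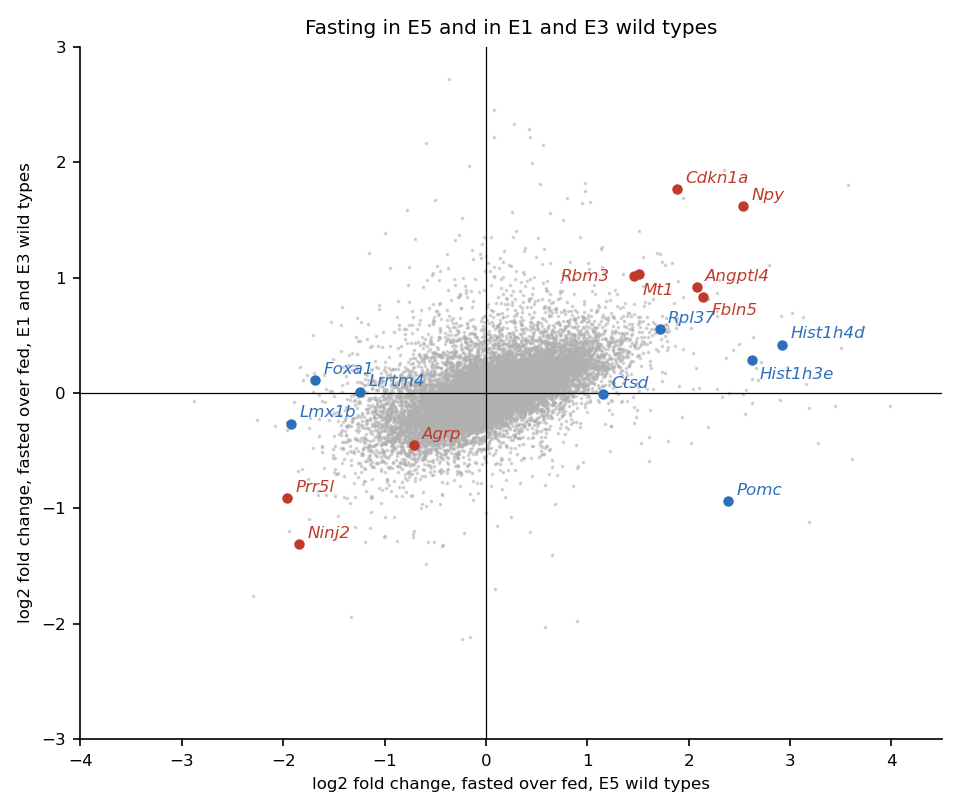
Log2 fold change of fasted over fed in E1 and E3 (vertical) against E5 wild types (horizontal) for 14837 genes, with 4 more outside the axes. Red labels mark genes that moved in the same direction in both, such as Npy at 2.54 and 1.62, and blue labels mark genes at which the lines differ, such as Hist1h4d at 2.93 and 0.42 and Lrrtm4 at -1.24 and 0.01.

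In knockouts of the E5 line, which share both batches with the wild types, 17.2% of 18384 genes were higher and 17.5% lower in fasted mice. The count of 6379 genes was 3787, 4086 and 3905 without fed knockout library 1, 2 or 3 and 3849 without fasted knockout library E5_173. Fasted knockout library E5_180 held 18550 scaled CPM of pituitary markers. Over 18186 genes the differences of the genotypes had an r of 0.86, and 2909 of 3151 genes higher in knockouts were also higher in wild types. The test of the difference between genotypes called 0 of 19319 genes (0%) with edgeR, with 1150 at an unadjusted p under 0.05 and a smallest adjusted p of 0.216, and DESeq2 called 2. That smallest p belonged to Dnajb1, a cofactor of heat shock proteins, which rose by 0.63 in wild types and gave -0.09 in knockouts. Slc15a2, a peptide transporter, rose by 0.89 in wild types and gave 0.07 in knockouts, and Slc38a2, an amino acid carrier, rose by 0.83 and gave 0.09. Neither difference passed the test. Npy rose by 1.91 in knockouts and Agrp fell by 0.42.

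Fto, the RNA demethylase gene whose name the tables carry, had 294, 264, 267 and 338 scaled CPM in fasted libraries, against 355, 336, 398 and 370 scaled CPM in fed libraries. It lies on chromosome 8 from 91313525 to 91668439 (mm10). The groups overlapped by library E5_223, and Fto fell by 0.32 (SE 0.10, edgeR adjusted p = 0.0131). E1 and E3 gave -0.20 (edgeR adjusted p = 0.0785) and fasted E5 over fed E2 gave -0.20 (edgeR adjusted p = 0.113). Its neighbour Irx5, a homeobox gene, had 3.10, 2.09, 1.82 and 2.04 scaled CPM in fasted libraries, against 3.79, 4.41, 4 and 4.98 scaled CPM in fed libraries, and fell by 0.90 (edgeR adjusted p = 0.00182). Irx3 fell by 0.64 (edgeR adjusted p = 0.0483) with an overlap and lost the call in 5 of the 8 fits that each left out 1 library, with values of -0.45 to -0.62. Of the 5 genes of the locus 3 were lower and 0 higher. Rpgrip1l, which shares a promoter region with Fto, had 44.4 to 55.0 scaled CPM in fasted and 49.4 to 57.0 scaled CPM in fed libraries, and its -0.12 did not pass (edgeR adjusted p = 0.247).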

How the data were processed

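Total RNA of hypothalamus was sequenced, and the values used are whole-number counts per gene, as the authors deposited them in 1 table per line and feeding state. Per the submitters' processing notes, Bowtie2, HISAT2, edgeR and the mm10 build were named; their roles, the counting program and the use of strand are not given in the sources used here. Every column of the tables used matched 1 sample (0 columns without a sample). Replicates were not duplicates of one another.

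Genes with too few counts (edgeR's filterByExpr, minimum count 10, minimum total 15) were left out. Fasted and fed E5 wild types were compared with edgeR 4.0.16 (R 4.3.3) by its quasi-likelihood test on TMM-scaled counts, with Benjamini-Hochberg adjustment over all genes tested and a threshold of 0.05. The same test was run for the E5 knockouts, the E1 and E3 wild types (with line as a term), fasted E5 over fed E2, fed E2 over fed E5, and for the differences between E5 and the E1 and E3 lines and between genotypes. All 55401 genes of the E5 tables and 21749 of the E1 and E3 tables were read. The steps were tested on simulated data. Alternatives were DESeq2 1.42.0, RLE scaling, no filter, GC and length trends taken out, a single model of all 16 E5 libraries, and leaving out libraries.

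Genes are named by these rules: Npy, Agrp, Pomc, Cartpt and Fto; up to 12 per direction of largest change among protein-coding genes without overlap, with and without the same call in both other fasting contrasts; up to 4 called members per direction of each list by p; and up to 6 per direction of lowest p for each difference. Sgk1, Fkbp5, Pdk4, Hspa5 and Rpgrip1l were added after their values were seen. Some genes that these rules select are not reported here. The libraries, lists and tests were chosen with earlier results of these data known. Promoter sequences are from RefSeq on GRCm38.p6. E5 and fed E2 levels share 1 scaling, and those of E1 and E3 were scaled within their own tables.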

Additional observations from a re-analysis of the deposited data

Results flagged for a closer look

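Among 265 groups of 4 libraries, 20 held a value far from the other 3, where chance gives about 1 in 20 groups. Fasted library E5_216 stood apart in Pomc (328 scaled CPM), Prl (3112 scaled CPM), Gh (1260 scaled CPM) and the pituitary sum (4401 scaled CPM). Fasted library E5_181 stood apart in Ttr (2983 scaled CPM), Kcne2 (11.5 scaled CPM), F5 (24.9 scaled CPM), the choroid plexus sum (3179 scaled CPM) and, as the lowest, Ly6c1 (6.33 scaled CPM). Fasted library E5_199 was lowest in Pfkfb3 (40.7 scaled CPM). Among fed E5 libraries, library 4 stood high in Prl (12 scaled CPM), Gh (8.6 scaled CPM), the pituitary sum (22.08 scaled CPM) and Ly6c1 (5.25 scaled CPM). Fed library 3 was high in Bcas1 (107 scaled CPM) and low in Rpgrip1l (49.4 scaled CPM) and Ctsd (22.7 scaled CPM). Fed library E2_195 stood apart in Rn7sk (7053 scaled CPM), the histone sum (305.5 scaled CPM) and the pituitary sum (8.685 scaled CPM).

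The fasting difference of E5 departed from that of E1 and E3 by the edgeR test of the difference itself in 20 of 24 genes. These 24 are the genes for which this difference is given. Some of them were named for their low p in this same test, so the count measures no rate. Over all 15383 genes tested, 14.4% departed upward and 12.6% downward. The signed value of E5 was the higher one for Pomc (3.20), Trh (1.08), Oxt (0.78), Mc4r (1.14), Angptl4 (1.09), Tsc22d3 (0.59), Rpl37 (1.07), Agt (0.88), C1qa (1.14), Ctsd (1.1), Ttr (8.33), Hist1h4d (2.42), Hist1h3e (2.24) and Hist1h4c (2.35), all on the log2 scale. It was the lower one, with the larger fall in E5, for Lrrtm4 (-1.33), Dok6 (-1.11), Robo2 (-1.08), Dpp10 (-1.04), Lmx1b (-1.69) and Foxa1 (-1.88). The values of Pomc and Ttr rest on libraries E5_216 and E5_181. In E5 feeding state and batch cannot be told apart, so these differences hold the batch as well.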

How the results depend on the processing

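The count of 10214 genes in fasted over fed E5 was 8865 to 10545 when each library was left out in turn, and 7465 when the 3 fasted libraries with pituitary or choroid plexus transcripts were left out together, so that E5_199 alone stood for fasting and was assumed to vary like the fed libraries. Leaving out each library gave 3787 to 9221 genes in E5 knockouts, 667 to 3192 in E1 and E3, 3112 to 4892 for E5 against E1 and E3, 3782 to 6608 in fasted E5 over fed E2 and 1828 to 4732 in fed E2 over fed E5. DESeq2 called 2471 genes in E1 and E3, against 1624 by edgeR, and 2 for the difference between genotypes, where edgeR called 0 in every such fit; the cause was not tested. No paired analysis was possible because fasted and fed E5 libraries share no numbers. In E3, same-numbered libraries did not deviate together, and the replicate block gave 1182 genes in E1 and E3.

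Of 1841 pairs of a gene named here and an alternative, 1790 kept their direction and side of the threshold, 43 lost the call (18 genes) and 5 gained it (Cartpt). With the 3 libraries left out, Rpgrip1l gave 0.04, Prl -4.43 and Gh -8.52, each with the sign turned. With the GC trend taken out, 14 feeding peptides were higher and 4 lower, 11 cholesterol genes were higher and 2 lower, 18 autophagy genes were higher and 5 lower, 6 clock genes were higher and 5 lower, and 3 mature oligodendrocyte markers were higher and 7 lower. With the length trend taken out, 5 clock genes were higher and 4 lower, and 4 mature oligodendrocyte markers were higher and 8 lower. Depth limits genes of few counts, and the number of libraries limits all tests.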
